A study of Homo sapiens with 5 samples.

Results

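The immediate early genes FOS, FOSB, JUN, JUNB, JUND, EGR1, IER2, IER3, DUSP1 and KLF6 were followed in HEK293T, a cell line from human embryonic kidney, after transfection with dCas9 methyltransferases. The 10 genes were taken by symbol from a fixed list, and all 10 had reads in every library, out of 19716 genes with a read in any library. There were 5 libraries, 1 per group, so no group had a replicate. In 4 of them the cells had received 5 uPA sgRNAs together with a plasmid for a fusion of dCas9, the catalytically inactive Cas9, and the blue fluorescent protein BFP, driven by the PGK promoter. The fusion named dCas9-BFP-DNMT1 carries the catalytic domain of that DNA methyltransferase, and dCas9-BFP-DNMT3A carries that of DNMT3A. The remaining pair are dCas9-BFP-DNMT3B, built likewise, and dCas9-BFP-EGFP, which carries a fluorescent protein and no methyltransferase. The remaining library received pUC19, a cloning plasmid that encodes neither a guide nor a fusion. A transfection lasted 48 hours with 1 ug of plasmid and X-tremeGENE 9. The labels describe BFP-positive cells as the source of RNA for every group, and how pUC19 cells, which carry no BFP plasmid, were gated is not given in the sources used here. The pUC19 library therefore differed from the others in the guides, in dCas9, in BFP and possibly in the gate, and these differences cannot be told apart.

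Immediate early genes are transcribed within minutes of a growth factor, stress or calcium signal, without new protein synthesis. MAP kinases and calcium signalling activate factors already bound at their promoters, chiefly SRF with its ELK cofactors at CArG boxes and CREB at cAMP response elements (CREs). FOS and JUN family proteins dimerise into the transcription factor AP-1, EGR1 and KLF6 are zinc finger transcription factors, and DUSP1 is a phosphatase that switches the MAP kinases off again. Their RNAs are short-lived.

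The proximal promoters of 4 members are shown with the signal-responsive elements that fall within them. RefSeq promoters (250 bases before to 50 after the start site, GRCh38.p14) were found for 9 of the 10 members, all but IER3, and each matched GRCh37, the build of the files, exactly once on its chromosome. The stretches below run from base -180 to base -21 before the start site, at chr14:75745351-75745510 on the plus strand for FOS, chr1:59249740-59249899 on the minus strand for JUN, chr5:137800988-137801147 on the plus strand for EGR1 and chr5:172198219-172198378 on the minus strand for DUSP1. Capitals mark CArG boxes, the core CRE sequence TGACG, the AP-1-like site TGACATCA and the TATA sequence TATAA, each on either strand.
FOS: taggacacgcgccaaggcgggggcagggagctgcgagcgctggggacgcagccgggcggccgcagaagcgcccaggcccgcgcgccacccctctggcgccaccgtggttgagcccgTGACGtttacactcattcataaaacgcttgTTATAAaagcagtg
JUN: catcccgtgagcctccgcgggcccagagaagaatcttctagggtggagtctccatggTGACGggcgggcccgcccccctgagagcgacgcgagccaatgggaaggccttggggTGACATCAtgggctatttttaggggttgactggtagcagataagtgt
EGR1: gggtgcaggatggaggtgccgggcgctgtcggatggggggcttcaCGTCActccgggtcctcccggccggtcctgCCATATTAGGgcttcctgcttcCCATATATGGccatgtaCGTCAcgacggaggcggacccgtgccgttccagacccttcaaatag
DUSP1: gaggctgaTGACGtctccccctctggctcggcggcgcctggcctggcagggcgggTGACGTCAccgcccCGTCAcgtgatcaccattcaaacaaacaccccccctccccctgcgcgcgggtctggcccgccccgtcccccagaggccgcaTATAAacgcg

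The core sequence TGACG was present in 8 of the 9 promoters, the exception being KLF6, against 24.6% of 35116 RefSeq promoters of the same length. TGACG itself holds a CpG, and the member promoters are rich in GC, from 62% (JUN) to 77% (JUND) against a median of 58.7%. Their observed to expected CpG ratio ran from 0.619 (JUN) to 1.11 (JUND) against a median of 0.579. No background matched for GC or CpG was used. The full CRE, TGACGTCA, which holds TGACG on both strands, was present in DUSP1 and JUND and in 1.85% of all promoters. Within this window, EGR1 was the member with CArG boxes, at bases -105 to -96 and -83 to -74, and 1.29% of all promoters held one. Sequence more than 250 bases before the start site was not searched, so CArG boxes of other members further upstream would be missed. TATAA was found in 5 of the 9 promoters (DUSP1, FOS, FOSB, JUNB and JUND) against 20.4% of all. The site TGACATCA was found in JUN and KLF6, against 2.61%, and the EGR site GCGGGGGCG in KLF6, against 5.07%. The consensus AP-1 site TGANTCA was in none of the 9 windows and in 7.71% of all promoters. These counts describe letters in a window and not occupancy.

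Libraries held 26.2 M to 36.1 M (M, mega) uniquely mapped reads. Of 12 markers of HEK293T cells, 11 reached 1 TPM (a transcript's reads divided by its length and scaled to 1 fixed sum per library) in each library, PAX8 being the exception, and 5 markers of adult kidney summed to at most 0.137 TPM. Each methyltransferase fusion was visible on the row of its own gene, which took 3.53% of reads (DNMT1), 3.19% (DNMT3A) and 5.98% (DNMT3B) where it was transfected and at most 0.0420% elsewhere. A technical difference ran across the libraries. A coverage in percent is deposited per gene, undefined in the sources used here and read as the share of the transcript covered. For genes with 10 to 20 reads per kb it averaged 46.8% to 47.2% in the DNMT1, DNMT3A and DNMT3B libraries and 41.7% and 42.1% in pUC19 and EGFP. Likewise, the log2 ratio to pUC19 rose with transcript GC content across 11964 genes in the DNMT1, DNMT3A and DNMT3B libraries (Spearman's rho 0.301, 0.289 and 0.246) and hardly in EGFP (0.0369). The members are GC-rich, with a median transcript GC of 56.9% against 48.9% for expressed genes. For the members, values with this trend removed are given where it ends a call or moves a log2 value named for a gene by over 1.5 times. Values of other named genes are given with the trend in them.

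The 10 members ranged in level from 0.944 TPM (FOS with EGFP) to 144.8 TPM (JUN with DNMT3A). Intervals given with levels are 95% exact Poisson intervals and cover read counting only. In these bulk samples, fewer cells expressing a gene and less RNA per cell cannot be told apart.

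FOS, the c-Fos subunit of AP-1 and the textbook immediate early gene (Gene ID 2353, chr14:75745529-75748933), was low throughout. Its level was 3.25 TPM in pUC19 (112 reads), 2.76 in DNMT3A (76 reads), 2.39 in DNMT3B (58 reads), 1.27 in DNMT1 (34 reads) and 0.944 in EGFP (23 reads). The DNMT1 and EGFP libraries stood below the other 3, with intervals of 0.881 to 1.78 and 0.598 to 1.42 TPM that did not reach the lowest interval of the others, 1.81 to 3.08 for DNMT3B. FOSB, its paralogue (Gene ID 2354, chr19:45971253-45978437), was at 1.76 TPM in DNMT3B, 1.43 in pUC19, 1.23 in DNMT3A, 1.20 in EGFP and 1.07 in DNMT1. With 50 to 86 reads per library, the intervals of neighbours in that order overlapped throughout, and FOSB was called in no pair of libraries. Between its highest and lowest library, DNMT3B and DNMT1, it differed 1.59-fold (adjusted p = 0.0482 by the exact binomial test).

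JUN, the c-Jun subunit (Gene ID 3725, chr1:59242517-59249720), was the most abundant member. It reached 144.8 TPM in DNMT3A, 136.2 in DNMT3B, 128.2 in pUC19, 108.7 in DNMT1 and 88.2 in EGFP. The TPM intervals of neighbours in that order did not overlap. The exact binomial test, which sets reads against library totals, did not separate DNMT3B from pUC19 (adjusted p = 0.998). The step between these libraries therefore depends on the scaling. JUND (Gene ID 3727, chr19:18390504-18392432), the JUN paralogue that many cells keep on at a steady level, had a different order, with 105.2 TPM in DNMT3B, 97.9 in DNMT3A, 87.1 in DNMT1, 65.0 in EGFP and 57.1 in pUC19. Here pUC19 was the lowest library, and the members with the highest transcript GC content, JUND at 69.9% and JUNB at 64.9%, are those most exposed to the GC trend. JUNB (Gene ID 3726, chr19:12902300-12904129), which often counteracts JUN within AP-1, was at 22.7 TPM in DNMT3A, 18.8 in DNMT3B, 15.6 in DNMT1, 12.4 in pUC19 and 9.86 in EGFP.

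EGR1, a zinc finger factor induced through SRF (Gene ID 1958, chr5:137801168-137804992), varied least. Its level was 8.01 TPM in DNMT3B, 7.23 in DNMT3A, 6.41 in DNMT1, 6.06 in pUC19 and 5.85 in EGFP. Neighbouring libraries overlapped in their intervals at every step, and the highest was 1.37 times the lowest. The interval of DNMT3B, 7.11 to 9.00 TPM, nevertheless lay above those of pUC19 (5.40 to 6.78) and EGFP (5.08 to 6.70). IER2, a nuclear protein of the early response (Gene ID 9592, chr19:13261225-13265725), was at 39.7 TPM in both DNMT3B and DNMT3A, 29.3 in DNMT1, 26.5 in EGFP and 24.6 in pUC19, so that DNMT3A and DNMT3B stood apart from the remaining libraries. IER3, a regulator of cell survival (Gene ID 8870, chr6:30710976-30712325), had pUC19 at the top, with 9.40 TPM in pUC19, 7.47 in DNMT1, 6.99 in EGFP, 6.87 in DNMT3B and 6.70 in DNMT3A. Its 4 fusion libraries could not be separated from one another by their intervals.

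DUSP1, the MAP kinase phosphatase (Gene ID 1843, chr5:172195099-172198198), split the libraries most cleanly. It was at 58.2 TPM in DNMT3A (1513 reads) and 51.6 in DNMT3B (1185 reads), against 29.4 in pUC19 (956 reads), 24.4 in EGFP (563 reads) and 23.8 in DNMT1 (600 reads). KLF6, a zinc finger factor that binds GC-rich promoters (Gene ID 1316, chr10:3818188-3827473), was at 63.2 TPM in DNMT3A, 54.4 in DNMT3B, 47.4 in EGFP, 28.9 in pUC19 and 24.6 in DNMT1. KLF6 was thus the member in which the EGFP library stood with DNMT3A and DNMT3B rather than with DNMT1.

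To see which members departed from the transfection control, each fusion library was compared with pUC19. FOS was lower with DNMT1 and with EGFP, KLF6 was higher with DNMT3A, and these were 3 calls out of 40 gene and fusion combinations. A gene was called at a Benjamini-Hochberg adjusted p of at most 0.001 in a two-sided exact binomial test on the reads of the 2 libraries and a fold change of at least 2 in TPM + 0.1, the thresholds of the study. Such a test compares 2 libraries and not 2 conditions. With dCas9-BFP-DNMT1, 1 of the 10 members was called, beside 5.16% of 19022 genes. FOS was 2.44-fold lower there (log2 ratio -1.29, adjusted p = 2.07e-06 by the exact binomial test). With dCas9-BFP-EGFP, 1 of 10 was called, beside 5.70% of 19125 genes, and FOS was 3.21-fold lower (log2 ratio -1.68, adjusted p = 3.49e-09 by the exact binomial test). With dCas9-BFP-DNMT3A, 1 of 10 was called, beside 9.36% of 18970 genes, and KLF6 was 2.18-fold higher (log2 ratio 1.13, adjusted p = 3.75e-182 by the exact binomial test). With dCas9-BFP-DNMT3B none of the 10 was called, beside 8.76% of 18962 genes. A share of 1 in 10 members or none lies near these backgrounds.

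Below the 2-fold limit, members lay on both sides of pUC19. DUSP1 had a log2 ratio of 0.98 with DNMT3A and 0.81 with DNMT3B but -0.31 with DNMT1 and -0.27 with EGFP. JUND was above pUC19 with all 4 fusions, at log2 ratios from 0.19 (EGFP) to 0.88 (DNMT3B), and so was IER2, from 0.10 (EGFP) to 0.69 (DNMT3A and DNMT3B). With the GC and length trend removed, JUND was at 0.21 with DNMT3A (from 0.78), 0.26 with DNMT1 (from 0.61) and 0.49 with DNMT3B (from 0.88), and at 0.28 with EGFP. IER2 was then at 0.20 with DNMT1 and EGFP, 0.47 with DNMT3A and 0.56 with DNMT3B. IER3 and FOS were below pUC19 with all 4 fusions, IER3 by log2 ratios of -0.33 to -0.48. The median log2 ratio of the 10 members was 0.47 with DNMT3A and 0.50 with DNMT3B, and -0.24 with DNMT1 and -0.25 with EGFP. Over 13080 genes of at least 1 TPM in all libraries, the median lay at -0.01 for DNMT3A and DNMT3B, -0.14 for DNMT1 and -0.004 for EGFP. Scaling by TMM moved the DNMT1 median of all genes by 0.13, from -0.14 to -0.01. The medians of the members hold the GC and length trend and were not recomputed without it. With the trend removed, all members but KLF6 had lower ratios with DNMT3A, such as JUNB at 0.61 (from 0.87) and JUN at 0.07 (from 0.18). With DNMT3B, the ratios of DUSP1, FOS, IER3 and KLF6 were then higher and those of the other members lower.

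**Figure D1:**
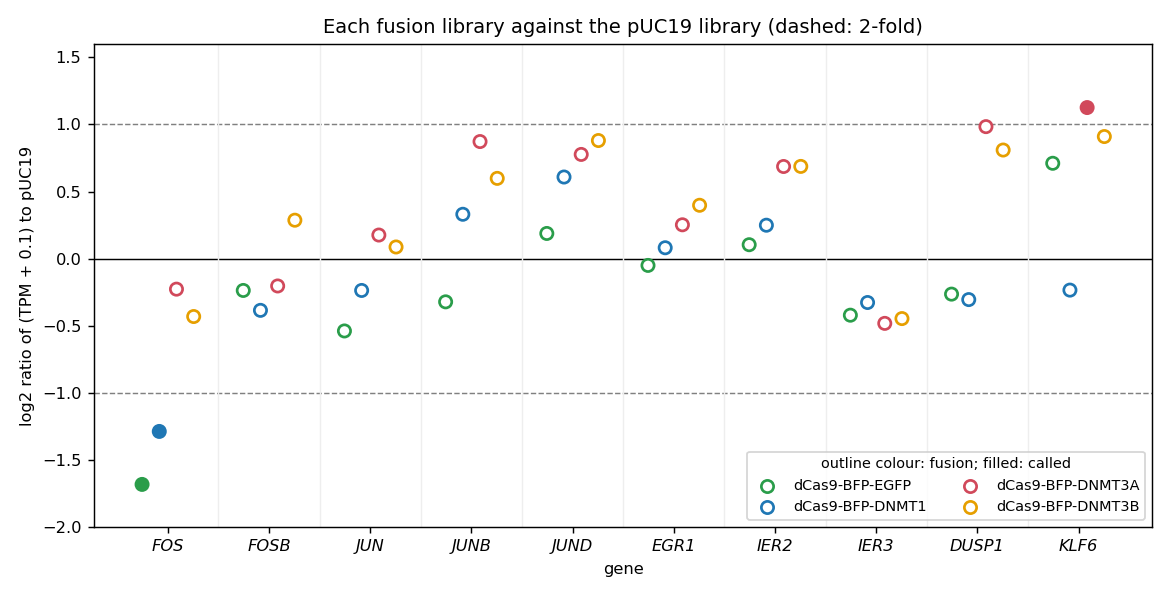
Log2 ratio of TPM + 0.1 to the pUC19 library (y axis) for the 10 genes (x axis) in the 4 fusion libraries, with filled circles for called genes and dashed lines at 2-fold. The filled points are FOS with DNMT1 (-1.29) and EGFP (-1.68) and KLF6 with DNMT3A (1.13).

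When the 4 fusion libraries were instead fitted jointly against pUC19, none of the 10 members passed. edgeR's quasi-likelihood test, in which the spread between the 4 fusions stands in for replicates, called 118 of 16001 genes at an adjusted p under 0.05 (0.737%) and 0 members. Members' adjusted p ran from 0.244 to 0.939. Before adjustment, 1 member, JUND, and 2879 of all genes had p under 0.05, and DESeq2 also called 0 members. JUND had the largest ratio of effect to error, with a log2 fold change of 0.69 ± 0.28 (SE, adjusted p = 0.244, edgeR). FOS was at -0.77 ± 0.53 (adjusted p = 0.468, edgeR) and KLF6 at 0.75 ± 0.40 (adjusted p = 0.356, edgeR), and the remaining 7 lay between -0.37 (IER3) and 0.51 (IER2). With the GC and length trend removed, the value for JUND was 0.36.

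The fusion libraries were next compared with each other. All share the sgRNAs, dCas9 and BFP, and they differ in the fused domain, DNMT3A and DNMT3B being de novo methyltransferases, DNMT1 a maintenance methyltransferase and EGFP a fluorescent protein. In 9 of the 10 members the DNMT3A and DNMT3B libraries were both above the DNMT1 and EGFP libraries in TPM, as were 33.8% of 14776 genes of at least 1 TPM in any library. IER3 was the exception. After TMM scaling the same arrangement was found for 9 members and 30.7% of genes. With the GC and length trend removed it was found for 6 members (FOS, JUN, JUNB, IER2, DUSP1 and KLF6) and 34.5% of the 13359 genes with a GC value, so FOSB, JUND and EGR1 no longer showed it.

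Pairwise calls between fusion libraries were all of this kind. DNMT3A against DNMT1 gave 3 of 10 members, FOS (2.09-fold), DUSP1 (2.45-fold) and KLF6 (2.57-fold), all higher, beside 3.59% of genes. DNMT3B against DNMT1 gave 2 of 10, DUSP1 (2.17-fold) and KLF6 (2.21-fold), beside 3.54%. DNMT3A against EGFP gave 3 of 10, FOS (2.74-fold), JUNB (2.29-fold) and DUSP1 (2.38-fold), beside 3.97%. DNMT3B against EGFP gave 2 of 10, FOS (2.38-fold) and DUSP1 (2.11-fold), beside 3.50%. Thus DUSP1 was called in each of these 4 comparisons, although for DNMT3B against DNMT1 its log2 ratio was 0.99 after TMM scaling, just short of 2-fold. With the GC and length trend removed, the calls of FOS for DNMT3A against DNMT1 (log2 ratio 0.91, from 1.06) and of JUNB for DNMT3A against EGFP (0.82, from 1.20) were lost. That FOS call was also lost after TMM scaling (0.96), thinning to the smallest library (0.84) and with a pseudocount of 1 TPM (0.73). The pseudocount also ended both FOS calls against EGFP (0.95 for DNMT3A and 0.80 for DNMT3B). Neither DNMT1 against EGFP (1.44% of genes) nor DNMT3A against DNMT3B (0.215% of genes) called any member, although KLF6 was 1.93-fold lower with DNMT1 than with EGFP. The 4 comparisons share libraries and are not independent of each other. All of these 10 calls, and the 3 against pUC19, were lost when a biological coefficient of variation of 0.2 or 0.4 was assumed in place of read sampling alone.

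Fitted as 2 libraries against 2, DNMT3A and DNMT3B against DNMT1 and EGFP, 1 member passed, beside 11.0% of 15332 genes. This fit (edgeR's quasi-likelihood test, adjusted p under 0.05) takes 2 different constructs as replicates of each other. DUSP1 averaged 54.9 TPM in DNMT3A and DNMT3B and 24.1 TPM in DNMT1 and EGFP, a 2.19-fold difference (log2 fold change 1.13 ± 0.14 SE, adjusted p = 0.00475, edgeR). It was close to that with the GC and length trend removed (1.06, adjusted p = 0.00278, edgeR). Without the DNMT3A library the value was 1.04 and no longer passed (adjusted p = 0.0977, edgeR), and without DNMT3B it was 1.23 (adjusted p = 0.0480, edgeR).

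The other members did not pass in that fit. FOS had the same size of difference as DUSP1 with a larger error, 1.15 ± 0.34 (adjusted p = 0.0615, edgeR). KLF6 was at 0.68 ± 0.23 (adjusted p = 0.0861, edgeR), JUNB at 0.64 ± 0.25 (adjusted p = 0.134, edgeR), IER2 at 0.45 ± 0.15 (adjusted p = 0.0833, edgeR) and JUN at 0.45 ± 0.15 (adjusted p = 0.0879, edgeR). JUND (0.35), FOSB (0.34) and EGR1 (0.25) were smaller, and IER3 was at -0.15. The GC and length correction took JUND to 0.03, FOSB to 0.18, EGR1 to 0.13 and IER2 to 0.25. With that correction KLF6 passed (0.67, adjusted p = 0.0384, edgeR), and 1921 of 13882 genes passed in all. The DNMT1 library weighed on this fit: without it, FOS was at 1.46, JUNB at 1.09, JUN at 0.69, JUND at 0.66 and KLF6 at 0.33. Without the EGFP library, KLF6 was at 1.14, FOS at 0.90, JUNB at 0.30, JUN at 0.25 and JUND at 0.10. Fits of this kind leave 1 library on 1 side.

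**Figure D2:**
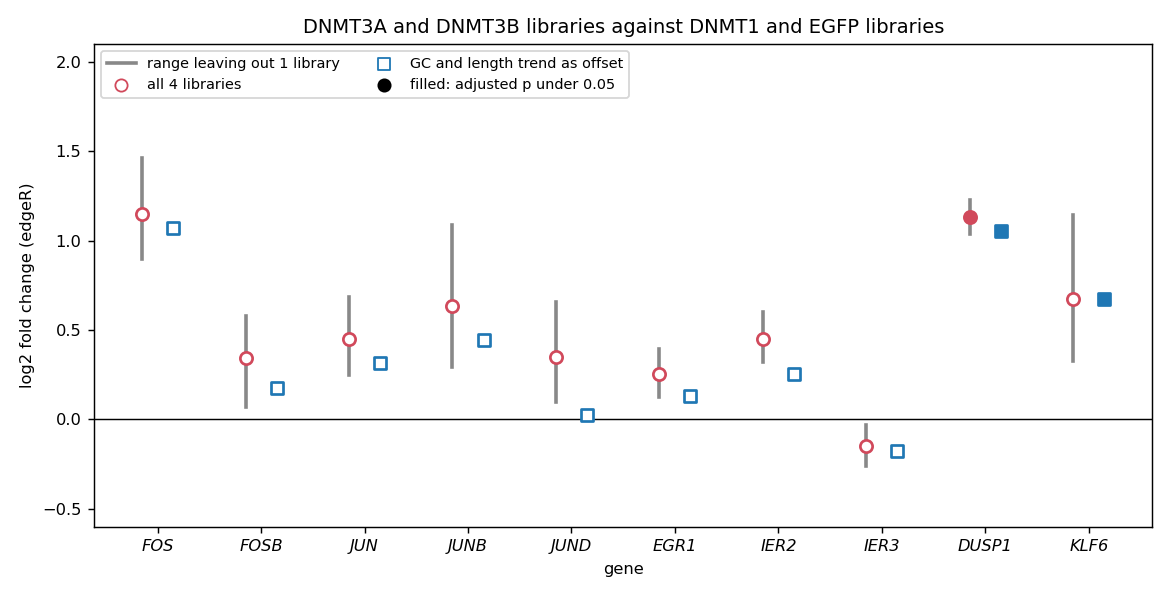
Log2 fold change of DNMT3A and DNMT3B against DNMT1 and EGFP (y axis, edgeR) for the 10 genes (x axis), as fitted (circles), with the GC and length trend as an offset (squares), and the range over fits that leave out 1 library (grey lines), filled where the adjusted p was under 0.05. DUSP1 is filled in both fits, at 1.13 and 1.06, and JUND falls from 0.35 to 0.03.

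At the level of AP-1, JUN family RNA outweighed FOS family RNA in every library. JUN, JUNB and JUND summed to 265.4 TPM in DNMT3A, 260.1 in DNMT3B, 211.4 in DNMT1, 197.7 in pUC19 and 163.1 in EGFP. JUN made up 64.9% of that sum in pUC19 and 51.4% to 54.6% with the fusions, and JUND 28.9% against 36.9% to 41.2%. These sums and shares hold the GC and length trend and were not recomputed without it. Removing it took the log2 ratio of JUND to pUC19 from 0.78 to 0.21 with DNMT3A and from 0.61 to 0.26 with DNMT1. It went from 0.88 to 0.49 with DNMT3B and from 0.19 to 0.28 with EGFP. FOS, FOSB and their relatives FOSL1 and FOSL2 together reached 14.7 TPM in DNMT3A and 16.0 in DNMT3B, against 8.53 in pUC19, 7.92 in DNMT1 and 6.03 in EGFP. FOSL1, which encodes Fra-1, was at 5.32 TPM in DNMT3A, 6.55 in DNMT3B, 2.66 in DNMT1, 2.02 in EGFP and 1.43 in pUC19. FOSL2, which encodes Fra-2, was at 5.38 TPM in DNMT3A, 5.28 in DNMT3B, 2.92 in DNMT1, 1.88 in EGFP and 2.42 in pUC19. Between the fusions both passed the fit of 2 against 2 libraries, FOSL1 with a log2 fold change of 1.27 and FOSL2 with 1.08. FOS was the most abundant of these 4 genes in pUC19, and FOSL1 or FOSL2 was in each fusion library.

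**Figure D3:**
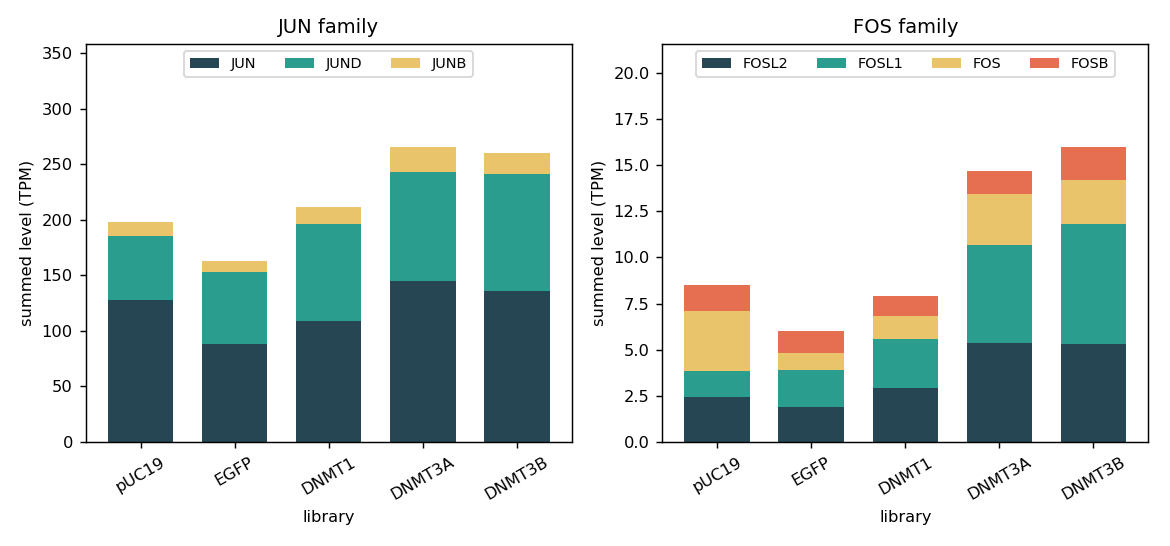
Summed level (y axis, TPM, stacked by gene) of the JUN family (left) and of the FOS family with FOSL1 and FOSL2 (right) in the 5 libraries (x axis). The JUN family sums range from 163.1 TPM in EGFP to 265.4 TPM in DNMT3A, and the FOS family sums from 6.03 TPM in EGFP to 16.0 TPM in DNMT3B.

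Other genes of the same response were followed by lists. Their values hold the GC and length trend, and how far it moves them is not given here. Between the fusions (DNMT3A and DNMT3B against DNMT1 and EGFP, where 6.90% of genes passed as higher and 4.15% as lower), 6 of 23 further immediate early transcription factors rose and 1 fell, with a median log2 fold change of 0.51 over the list and -0.01 over all genes. CSRNP1, an AXIN1-induced nuclear factor, rose by a log2 fold change of 1.61, FOSL1 by 1.27, FOSL2 by 1.08, MAFK, a small MAF partner of AP-1-like factors, by 1.02, and the stress factor ATF3 by 0.51. ID2, an inhibitor of helix-loop-helix factors, fell by 0.45. Of the early signalling and RNA-decay genes, 6 of 29 tested rose and none fell, with a median of 0.43, among them PLK3 (1.48), TNFAIP3, a brake on NF-kappaB signalling (1.29), and SGK1 (1.19). Of the MAP kinase phosphatases and feedback inhibitors other than DUSP1, 3 of 16 rose and 1 fell, with a median of 0.28. These were SPRED2 (1.28), DUSP8 (1.20), DUSP5 (1.08) and, lower, DUSP3 (-0.65). DUSP6, the usual reporter of ERK activity, was under 0.6 TPM in all libraries and was not tested there.

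Of 27 upstream MAP kinase genes, 4 rose and 5 fell between the fusions, with a median of -0.02. Of 21 upstream transcription factors, 5 rose (CREBBP, MEF2D, ATF1, MKL1 and CRTC3) and none fell, with a median of 0.16. MAP2K7, an activator of JNK, rose by 0.73 and MAP2K6, an activator of p38, fell by 1.18. SRF was at 80.7 TPM in DNMT3B, 70.2 in DNMT3A, 68.6 in EGFP, 53.4 in DNMT1 and 48.2 in pUC19, a log2 fold change of 0.26 between the fusions that did not pass (adjusted p = 0.229, edgeR). Its cofactor ELK1 was at 51.7 to 63.6 TPM in the 5 libraries. Of 14 further AP-1 dimer partners tested, 1 passed, DDIT3, which was lower (-0.93), and neither of the EGR corepressors NAB1 and NAB2 passed.

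Against pUC19, list genes with calls in all 4 fusions were MYC, ID2 and SIK1 (lower) and PPP1R15A and JDP2 (higher). MYC, the growth-regulating transcription factor, was at 386.8 TPM in pUC19 and 65.5 to 88.2 TPM in the fusion libraries and was the list gene with the smallest adjusted p in the fit of 4 fusions against pUC19 (log2 fold change -2.30, adjusted p = 0.00936, edgeR). SIK1, a kinase induced by cAMP, was at 8.68 TPM in pUC19 and 2.30 to 3.49 TPM in the fusion libraries. PPP1R15A, the stress-induced phosphatase subunit GADD34, was at 21.5 TPM in pUC19 and 47.0 to 78.7 TPM in the fusion libraries, and did not pass that fit (adjusted p = 0.0566, edgeR). Of all the list genes, MYC and MAFG (1.39) passed it.

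Finally, genes of at least 5 TPM in all libraries were ranked by how closely their profile over the 5 libraries followed that of a member, as the root mean square difference of centred log2(TPM + 0.1). FOS was followed most closely by ST6GALNAC6 (0.150), SNUPN (0.156) and TRAPPC12 (0.175), out of 10160 genes. EGR1 was followed by GSE1 (0.0113), GLI2 (0.0152) and WHSC1L1 (0.0232), and JUN by LHX6 (0.0274), SBDSP1 (0.0315) and SGCE (0.0359). With 5 values per gene and 10160 candidates, close profiles of this kind are a description only.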

How the data were processed

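Poly(A) RNA of 5 HEK293T transfections was read on the Ion Proton platform. Before alignment the authors removed low-quality, adaptor and short (under 30 nt) reads, aligned the rest with tmap (version not given in the sources used here) to RefSeq RNA of hg19 with up to 3 mismatches, and kept uniquely mapped reads. The deposited read counts are raw whole numbers per gene, and the deposited TPM values are these counts divided by transcript length and scaled to a fixed sum. The deposited tables also hold a coverage in percent per gene, which is not defined in the sources used here. A gene without a row in a library was set to 0. Reads of near-identical paralogues are lost under unique mapping, and counting is not stated to use strand.

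Groups were taken from the sample titles. Libraries were compared in pairs with an exact binomial test, two-sided and conditional on the summed reads of a gene, its expected share set by the library totals, with Benjamini-Hochberg adjustment over all genes with a read, and groups of libraries with edgeR 4.0.16 (R 4.3.3; TMM, filterByExpr, quasi-likelihood F-test). The SE of an edgeR value is its log2 fold change divided by the square root of F. Fold changes of pairs are ratios of TPM + 0.1 and understate changes of low genes. A count of 3 reads was taken as the floor of a library (0.0830 to 0.114 CPM). Intervals and floors cover counting error only. The transcript GC content was taken from GENCODE transcripts on GRCh37 for 89.3% of genes. Its trend was removed as a smooth function of GC and length. Scripts were tested on simulated data. The nearest profiles were listed for FOS, EGR1 and JUN. List genes were named where they were called the same way in all 4 fusions or passed an edgeR fit, at most 6 per list, or where the members' biology refers to them. Alternatives were a pseudocount of 1 TPM, TMM or median-ratio scaling, assumed coefficients of variation, filters on low values, thinning to the smallest library, totals without the DNMT rows, DESeq2 1.42.0, leaving out each fusion library, and removal of the GC and length trend. That removal, and all alternatives for the pairs of fusions, were chosen after seeing the data. The members and lists were chosen with earlier results of these data known. The lists of markers of blood, endothelium, fibroblasts and liver summed to at most 8.59 TPM in any library.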

Additional observations from a re-analysis of the deposited data

Results flagged for a closer look

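DUSP1 differed between the DNMT3A and DNMT3B libraries and the DNMT1 and EGFP libraries, with a log2 fold change of 1.13 in the edgeR fit of 2 libraries against 2 (adjusted p = 0.00475). Both DNMT3A and DNMT3B were above both DNMT1 and EGFP. The deposited coverage values and the GC trend separate DNMT1, DNMT3A and DNMT3B from EGFP and pUC19. With the GC and length trend removed, the value for DUSP1 was 1.06. A batch of transfection or library preparation cannot be told apart from the fused domain, since each fusion has 1 library. With at most 5 libraries and 1 per group, no sample could be set against others of its own group.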

How the results depend on the processing

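No paired analysis was possible because each group has 1 library and the labels give no replicate numbers. Of the 3 calls against pUC19 and the 10 calls between fusions, 0 and 0 were left under an assumed coefficient of variation of 0.2 or of 0.4, and from 2 to 4 and from 7 to 10 under the other alternatives. KLF6 with DNMT3A against pUC19 lost its call only under those coefficients, while FOS with DNMT1 also lost it at a pseudocount of 1 TPM (-0.91), and DUSP1 with DNMT3A gained one with TMM (1.00). In the fit of 4 fusions against pUC19 the count of members stayed at 0 in every alternative run, including DESeq2. In the fit of DNMT3A and DNMT3B against DNMT1 and EGFP, the count went from 1 to 3 with DESeq2 (JUN, DUSP1 and KLF6, FOS having no adjusted p there), to 2 with the GC and length correction, and from 0 (without DNMT3A) to 6 (without DNMT1) over the fits that leave out 1 library. A lone library is there assumed to vary like the pair it is set against. The number of members at their highest in the DNMT3A or DNMT3B library was 8 by TPM and 8 after TMM scaling. A pseudocount cannot change that order. The number was not counted with the GC and length trend removed, nor over all genes.

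Of the single log2 values, 1037 kept direction and side of the threshold over the alternatives, 36 dropped below it, 11 rose past it and 15 changed sign, all of them uncalled values. The 1037 are no measure of robustness. Some alternatives for the pairs change only the test or a filter and keep the log2 ratio, and an uncalled value cannot drop below the threshold. With the GC and length trend removed, the changes of sign were for DNMT3A against DNMT1 FOSB (-0.005), JUND (-0.048) and EGR1 (-0.001), for DNMT3A against EGFP FOSB (-0.110) and JUND (-0.069), and for DNMT1 against EGFP JUND (-0.021), IER2 (-0.007) and IER3 (-0.018). Thinning reversed EGR1 for EGFP against pUC19 (0.036), IER3 for DNMT3B against EGFP (0.009) and IER2 for DNMT3A against DNMT3B (0.022). TMM reversed DUSP1 for DNMT1 against EGFP (0.098) and IER2 for DNMT3A against DNMT3B (0.016), and totals without the DNMT rows reversed IER3 for DNMT3B against EGFP (0.023). Over the fits that leave out 1 fusion library, JUN against pUC19 ranged from -0.150 to 0.080, the last without EGFP. The genes called in that fit numbered 118, and 977 with DESeq2 and 252 without a filter. In the other fit 1694 were called, and 18 without DNMT3A, 53 without DNMT3B, 3536 without DNMT1, 3850 without EGFP and 1052 without a filter. The causes were not tested. Depth limits FOS and FOSB most, at 23 to 112 reads per library.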

Other observations

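EGR2, EGR3 and EGR4, the relatives of EGR1, were expressed at low levels. EGR2 was at 2.44 TPM in DNMT3A, 1.81 in DNMT3B, 1.15 in EGFP, 1.11 in pUC19 and 0.999 in DNMT1. It was called higher in the DNMT3A library in pairwise tests against pUC19 (log2 ratio 1.07, adjusted p = 1.81e-05 by the exact binomial test), DNMT1 and EGFP. EGR3 was at 0.367 to 0.780 TPM and was not called against pUC19. EGR4 had 1 read in pUC19 and 3 to 20 reads in the fusion libraries, and was called higher against pUC19 with DNMT3A (20 reads) and DNMT3B (14 reads). None of the 3 passed either fit of several libraries.

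GADD45A and GADD45B, stress genes of the signalling list, had opposite orders of pUC19 and the fusions; they were picked after their values were seen, as was EGR4. GADD45A was at 51.1 TPM in pUC19, 67.5 in EGFP, 77.2 in DNMT1, 97.6 in DNMT3B and 124.8 in DNMT3A. It was called against pUC19 with DNMT3A (log2 ratio 1.29). GADD45B was at 22.7 TPM in pUC19 and 6.31 to 11.4 TPM with the fusions, and was called lower with DNMT3A (-1.69), DNMT3B (-1.83) and EGFP (-1.78). Neither passed in either fit of several libraries (GADD45A adjusted p = 0.208 and 0.0664, GADD45B 0.0921 and 0.317, edgeR).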
